A study of Rattus norvegicus with 6 samples.

Results

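The genes described here encode the actins, troponins and tropomyosins of the muscle thin filament, measured in cultured neonatal rat ventricular myocytes with and without knockdown of Decr1. They were taken by symbol as Actc1, Acta1, Tnnt2, Tnnt1, Tnni3, Tnni1, Tnnc1, Tpm1, Tpm2 and Tpm3. All 10 were among the 30001 features of the expression table, and all 10 were among the 11975 features tested. The RNA of primary ventricular cells had been sequenced in 6 libraries, the cells coming from Sprague-Dawley rats in their first 3 days after birth. The 3 control libraries carry the treatment label NC, which is not spelled out, and the 3 knockdown libraries come from cells given a short hairpin RNA against Decr1 (sh-Decr1). All 6 are labelled as batch 1. Decr1 encodes a mitochondrial dienoyl-CoA reductase that takes part in the oxidation of unsaturated fatty acids. The labels give neither the vector or promoter of the hairpin, nor the time between treatment and harvest, nor whether libraries came from separate cultures or animals. The p-values therefore rest on the spread among these libraries alone, and that spread may be technical. Before treatment, cells from an isolation kit had been left for 2 h, and those still in suspension were moved to a new dish with 10% serum for 24 h.

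In the sarcomere, the contractile unit of striated muscle, the thin filament is a polymer of actin wrapped by tropomyosin, with a troponin complex set at intervals along it. Troponin C binds calcium, troponin I holds the filament in its inhibited state at low calcium, and troponin T ties the complex to tropomyosin. Several of these proteins come from gene pairs whose use changes in development. The heart of rodents uses slow skeletal troponin I (Tnni1) before birth and cardiac troponin I (Tnni3) in the adult. Skeletal actin (Acta1) and beta-tropomyosin (Tpm2) are likewise more abundant in the early rodent heart, next to the main adult forms cardiac actin (Actc1) and alpha-tropomyosin (Tpm1). Cardiac troponin T (Tnnt2) changes by splicing, which values per gene do not show.

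Of the 10 genes, 8 rose and 2, Tnnc1 and Tpm2, fell in the knockdown libraries, by limma on log2(FPKM + 1) with a Benjamini-Hochberg adjusted p under 0.05. FPKM gives the fragments of a gene relative to its length and to the size of its library, and log2 changes are knockdown minus control throughout. By the same rule 80.8% of all features tested were called, 48.4% higher and 32.4% lower, so a call by itself sets a gene little apart. The median log2 change was 0.52 over the 10 genes and 0.14 over all features tested. Acta1 rose most, and its log2 change of 2.11 was above that of 98.4% of all features. Tpm2 fell most, and 11.8% of all features had a lower log2 change. After median-ratio scaling 6 of the 10 were higher and 2 lower, beside 38.8% and 41.0% of all features, and after quantile normalization 7 and 2, beside 41.7% and 38.1%. For 9 of the 10 genes the FPKM ranges of the groups did not overlap, as for 82.3% of all features, and Tnnt1 was the exception. Among the 8 higher genes, Tnnt1 alone averaged under 1 FPKM in controls, at 0.895 FPKM against 1.64 FPKM in the knockdown. It reached the tested mean of 1 FPKM over the 6 libraries only through the knockdown group. The filter thus favoured a rise for this gene.

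**Figure D1:**
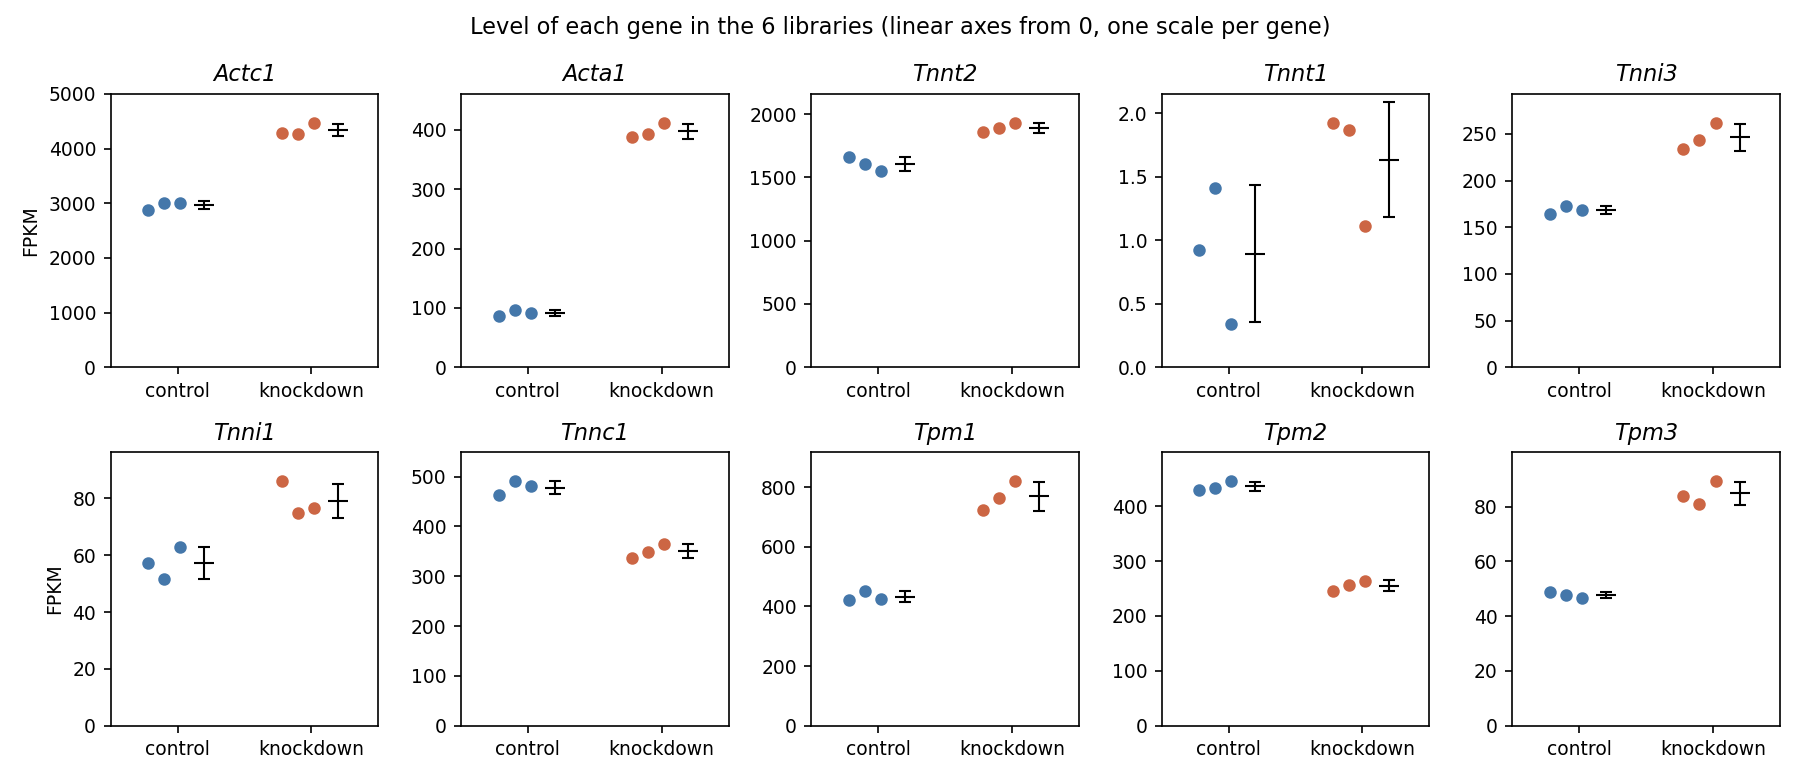
FPKM of the 10 genes in the 3 control (blue) and 3 knockdown (orange) libraries, each gene on its own linear axis from 0. Black marks give the mean and SD of 3 libraries. The groups stand apart for every gene but Tnnt1, and Tnnc1 and Tpm2 are the 2 genes lower in the knockdown.

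Some values of the whole data set bear on these genes. Decr1 itself measured 43.6, 44.3 and 42.8 FPKM without the hairpin, against 3.33, 1.24 and 2.36 FPKM with it. Depth was 39659092 to 40108670 fragments in the controls and 35290664 to 37413240 in the knockdown. All 15 fibroblast markers were lower, with a median log2 change of -3.31, and their summed level was 9899 to 10704 FPKM in the control group against 1332 to 1491 FPKM. All 6 epicardial and mesothelial markers were lower too, with a median of -3.43. In bulk samples, fewer cells of a type and less RNA per cell cannot be told apart. Since FPKM is relative to library size, lower RNA of other cells may bear on genes that rose as well as on those that fell. Its part in the values of the 10 genes was not tested. Of 11 smooth muscle and pericyte markers, 3 were higher and 6 lower, of 8 macrophage and leukocyte markers 5 were lower (8 after either other scaling), and of 5 tested endothelial markers 1 was higher and 3 lower. All 10 cardiomyocyte markers were detected in each library. Of these Myl3, Actn2 and Mybpc3 were higher and 7 lower, among the latter Myh6, Myh7, Myl2 and Nppa. After either other scaling 2 of the 10 were higher and 7 lower. Their summed level was 14108 to 14670 FPKM in the control group against 6845 to 7457 FPKM. Nppa made up most of that sum, and the other 9 markers summed to 2718 to 2759 FPKM against 2142 to 2258 FPKM. Scaling mattered. Of all calls, 59.9% were higher on the FPKM as deposited. That share was 48.7% with median-ratio scaling and 52.2% with quantile normalization. Median-ratio scaling moved the median log2 change of all features from 0.14 to -0.02, and quantile normalization moved it to 0.03.

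Both striated muscle actins rose, with a log2 change of 2.11 for Acta1 and 0.55 for Actc1. Acta1, the skeletal muscle alpha-actin, stood at 85.8, 96.2 and 91.6 FPKM in control replicates 1 to 3 and at 388, 393 and 412 FPKM in knockdown replicates 1 to 3. Every knockdown library was above every control library. The mean went from 91.2 ± 5.23 to 398 ± 12.7 FPKM (SD, n = 3 each), a ratio of 4.36, with a log2 change of 2.11 (SE 0.050, limma, Benjamini-Hochberg adjusted p = 2.82e-10). These values rested on 4934 to 5489 reads per control library and 20855 to 21145 per knockdown library. Actc1, the cardiac alpha-actin, was the most abundant of the 10 genes. It measured 2883, 2997 and 3010 FPKM in the control libraries and 4278, 4265 and 4471 FPKM with the hairpin. The groups did not overlap here either. Actc1 went from 2963 ± 69.7 to 4338 ± 115 FPKM, a log2 change of 0.55 (SE 0.043, limma, Benjamini-Hochberg adjusted p = 1.03e-06). In rank of mean FPKM over the whole table, Actc1 stood 10th in the controls and 5th in the knockdown, and Acta1 725th and 169th.

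Skeletal muscle markers were read beside Acta1. Of the 12 on that list, which includes Acta1 itself, 4 passed the filter on low values. Acta1, Myh1 and Myh2 were higher, and Ckm did not pass the test. Myh1 and Myh2 averaged under 1 FPKM in controls and passed the filter only through the knockdown libraries, which favoured a rise. These calls are therefore no support beyond the Acta1 values themselves. Myh2 was at 0.160 ± 0.0400 FPKM in controls against 2.07 ± 0.365 FPKM with the hairpin. Myh1, a fast myosin heavy chain gene, was at 0.576 ± 0.134 FPKM in controls against 6.41 ± 0.131 FPKM with the hairpin. The other 8 markers had means over the 6 libraries below the filter of 1 FPKM. Among them Pvalb went from 0.622 to 0.123 FPKM and Tnnt3 from 1.04 to 0.472 FPKM, both lower without overlap. The rest of the 8 had higher means in the knockdown, all under 1 FPKM. Myod1, a defining factor of skeletal myoblasts, was listed at 0 in the 3 control libraries and had 4, 11 and 1 reads in the knockdown libraries. Acta1 made up most of the summed level of the list, which ran from 114 to 126 FPKM in controls and from 426 to 455 FPKM with the hairpin. The other 11 markers summed to 28.4 to 31.0 FPKM and to 35.5 to 43.3 FPKM.

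The start regions of the pair are shown because their transcripts moved in the same direction by different amounts. They come from RefSeq (GRCr8) and run 250 bases before to 50 bases after the annotated start, 5′ to 3′. The Acta1 region is chr19:68784145-68784444 on the minus strand, and the Actc1 region is chr3:121271778-121272077 on the minus strand. Capitals mark matches, on either strand, to the CArG box bound by serum response factor, to the sequence CATTCC bound by TEAD factors and to the sequence TATAAA. Only exact matches were marked, with A or T alone between the CC and the GG of the CArG box. Sequences that differ from it by a base were not searched for and can lie in these windows unmarked. No match overlapped another.
Acta1: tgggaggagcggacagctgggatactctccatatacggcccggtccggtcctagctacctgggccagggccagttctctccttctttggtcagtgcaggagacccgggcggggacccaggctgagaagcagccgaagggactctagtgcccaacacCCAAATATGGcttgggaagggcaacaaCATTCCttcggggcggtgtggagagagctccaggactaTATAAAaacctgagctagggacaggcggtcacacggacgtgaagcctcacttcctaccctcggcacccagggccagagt
Actc1: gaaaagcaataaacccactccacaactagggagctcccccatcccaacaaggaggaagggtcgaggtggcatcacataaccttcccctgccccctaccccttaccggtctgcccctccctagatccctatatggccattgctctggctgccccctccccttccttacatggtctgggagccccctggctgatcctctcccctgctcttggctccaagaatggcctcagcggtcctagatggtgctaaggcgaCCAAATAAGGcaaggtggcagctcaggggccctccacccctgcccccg
Acta1 held a CArG box starting 94 bases before the start, a CATTCC starting 67 bases before it and a TATAAA starting 29 bases before it. Actc1 held a CArG box just past the annotated start and neither of the other motifs. Among 33469 RefSeq regions of the same length, 1.64% held a CArG box, 14.2% the CATTCC motif and 14.2% the TATAAA motif. RefSeq gave such regions for 9 of the 10 genes, 12 regions in all. Of the 9 genes, Acta1 and Actc1 were the 2 with a CArG box, and Acta1, Tnnt2 and Tpm1 were the 3 with CATTCC. These matches describe letters in a window and were not tested as binding sites.

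The ratio of skeletal to cardiac actin was higher in every knockdown library. Acta1/Actc1 in FPKM was 0.0298, 0.0321 and 0.0304 in the controls and 0.0907, 0.0921 and 0.0921 in the knockdown, so the groups did not overlap and differed by a factor of 2.98. With 3 libraries a group, a two-sided exact permutation test cannot go below p = 0.1, which it reached here (0.2 after Benjamini-Hochberg adjustment over the 6 ratios tested). In the sum of both genes, Acta1 took 2.98% ± 0.114 in controls and 8.39% ± 0.0722 in the knockdown (SD, n = 3 each). That sum went from 3054 ± 74.2 to 4736 ± 127 FPKM, and Actc1 made up most of the rise.

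The other actin genes did not move as a group. Acta2, the smooth muscle alpha-actin that is also made in the early heart and in myofibroblasts, rose from 1672 ± 83.3 to 3481 ± 214 FPKM (log2 change 1.06, SE 0.057, limma, Benjamini-Hochberg adjusted p = 6.25e-08). Acta2/Actc1 was 0.550, 0.561 and 0.582 in the controls and 0.781, 0.791 and 0.834 in the knockdown, without overlap (exact permutation p = 0.1, adjusted 0.2). Cytoplasmic beta-actin, Actb, rose from 2578 ± 92.2 to 3258 ± 15.0 FPKM. Actg1, the cytoplasmic gamma-actin, stood at 645 ± 32.8 and 589 ± 19.4 FPKM, with overlapping groups. Its log2 change of -0.13 turned to 0.11 after quantile normalization, so its direction depended on the scaling. Actg2, the enteric smooth muscle actin, stood at 45.7 ± 5.69 and 41.0 ± 2.75 FPKM and did not pass as deposited (limma, Benjamini-Hochberg adjusted p = 0.138). It passed as lower after median-ratio scaling (log2 change -0.33, limma adjusted p = 0.00511) and with quantile normalization (log2 change -0.28, limma adjusted p = 0.0127). Since Acta2 also marks smooth muscle cells and myofibroblasts, the markers of those cells belong beside it. Cnn1 and Des were higher, Myh11, Smtn, Mylk, Rgs5, Pdgfrb and Notch3 lower, and Tagln and Lmod1 did not pass. The summed level of the 11 smooth muscle markers, Acta2 included, ran from 3545 to 3822 FPKM in the control group and from 5829 to 6266 FPKM in the other. Without Acta2 it ran from 1903 to 2072 FPKM and from 2456 to 2538 FPKM. In that remainder Des went from 614 ± 30.5 to 1215 ± 18.7 FPKM and Cnn1 from 88.0 ± 2.58 to 207 ± 10.6 FPKM. Since 6 of the markers were lower, the higher sum does not stand for the list. The part of these cells in the Acta2 values was not tested.

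**Figure D2:**
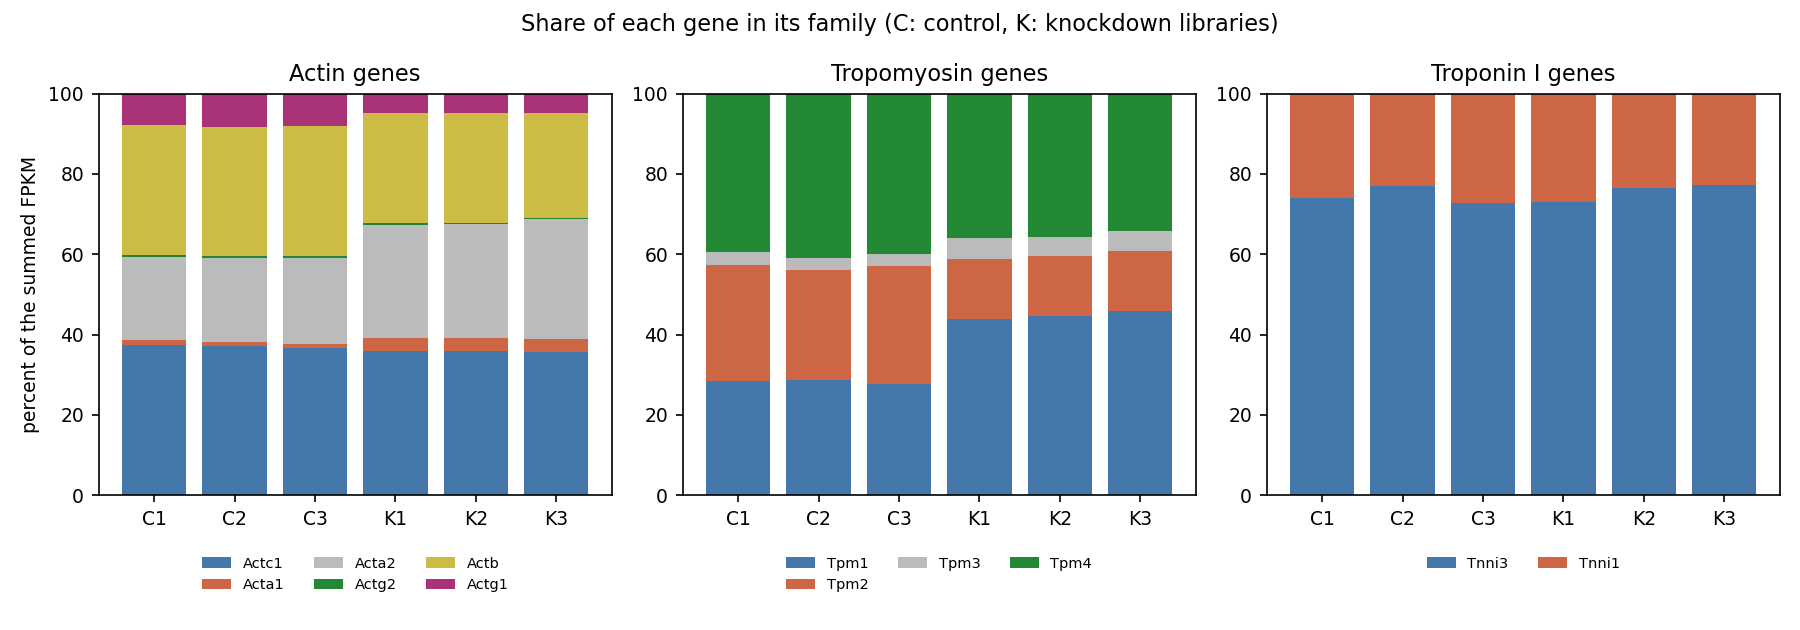
Share of each gene in the summed FPKM of the 6 actins, the 4 tropomyosins and the 2 troponin I genes in the 3 control (C1 to C3) and 3 knockdown (K1 to K3) libraries. Tpm1 widens from 28.3% to 44.9% on average and Tpm2 narrows from 28.5% to 14.9%, while the troponin I shares overlap between the groups.

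The troponin genes went different ways, with both troponin I genes and Tnnt2 higher and the troponin C gene lower. Tnni3, the cardiac inhibitory subunit, measured 164, 173 and 169 FPKM in the control libraries and 234, 243 and 262 FPKM with the hairpin. Tnni1, the slow skeletal and fetal inhibitory subunit, measured 57.4, 51.6 and 62.8 FPKM in the control libraries and 86.0, 74.9 and 76.7 FPKM with the hairpin. Neither gene overlapped between the groups. The mean of Tnni3 went from 168 ± 4.44 to 246 ± 14.3 FPKM, a log2 change of 0.55 (SE 0.049, limma, Benjamini-Hochberg adjusted p = 2.90e-06). Tnni1 went from 57.3 ± 5.63 to 79.2 ± 5.99 FPKM, with a log2 change of 0.46 (SE 0.076, limma, Benjamini-Hochberg adjusted p = 0.000251).

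The fetal to adult ratio of troponin I did not differ beyond the spread between libraries. Tnni1/Tnni3 was 0.351, 0.299 and 0.373 in the controls and 0.368, 0.308 and 0.293 in the knockdown. The groups overlapped along most of their range, and the exact permutation test over 3 against 3 libraries gave p = 0.7 (two-sided, 0.84 after adjustment over the 6 ratios). Tnni1 made up 25.4% ± 2.13 of troponin I FPKM in controls and 24.4% ± 2.24 in the knockdown (SD, n = 3 each). Leaving out each library in turn moved the log2 difference of the ratio between -0.18 and -0.01, and 3 libraries a group do not show that the ratios were equal.

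Tnnc1 was the troponin gene that fell. This gene of the calcium-binding subunit of slow and cardiac muscle measured 463, 491 and 481 FPKM in the control libraries and 337, 348 and 366 FPKM with the hairpin. All knockdown libraries were below all controls. The mean went from 478 ± 13.8 to 350.3 ± 14.2 FPKM, or 73.2% of control, with a log2 change of -0.45 (SE 0.044, limma, Benjamini-Hochberg adjusted p = 5.77e-06). It was lower under both other scalings as well, by a log2 change of -0.63 with median-ratio scaling and -0.39 with quantile normalization. With troponin I higher and troponin C lower, Tnnc1 over the sum of Tnni1 and Tnni3 went from 2.12 ± 0.0598 to 1.08 ± 0.0193 (SD, n = 3 each), and no library of a group reached the range of the other. RefSeq gave no start region for Tnnc1 in the table used. Fast skeletal troponin C, Tnnc2, stayed under 1 FPKM on average, at 0.187 ± 0.166 in controls and 0.448 ± 0.395 in the knockdown.

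Tnnt2, the cardiac tropomyosin-binding subunit, was the second most abundant of the 10 genes and changed least on the FPKM as deposited. It measured 1662, 1603 and 1547 FPKM in the control libraries and 1857, 1887 and 1931 FPKM with the hairpin. The groups did not overlap, but the gap between the highest control and the lowest knockdown library was small next to that of Actc1. Its mean went from 1604 ± 57.3 to 1892 ± 37.3 FPKM, a log2 change of 0.24 (SE 0.043, limma, Benjamini-Hochberg adjusted p = 0.000505) against the median of 0.14 over all features. After median-ratio scaling the log2 change was 0.05 and no longer passed (limma, Benjamini-Hochberg adjusted p = 0.303), while after quantile normalization it was 0.50.

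Tnnt1, the slow skeletal troponin T, was near the limit of measurement. It measured 0.927, 1.42 and 0.343 FPKM in the control libraries, from 35, 53 and 13 reads, and 1.93, 1.87 and 1.11 FPKM with the hairpin, from 68, 66 and 37 reads. The groups overlapped, with control replicate 2 above knockdown replicate 3. The log2 change of 0.50 passed by a small margin (SE 0.20, limma, Benjamini-Hochberg adjusted p = 0.0405). The gene had passed the filter on low values only through the knockdown group. Over the 11 alternatives the adjusted p in limma ran from 0.00247 to 0.148, and 3 of the 11 kept the call. It was lost after either scaling, with a pseudocount of 0.1 and with no filter on low values. It was also lost without control replicate 1 (log2 change 0.53), control replicate 3 (0.27), knockdown replicate 1 (0.42) or knockdown replicate 2 (0.43). Tnnt1/Tnnt2 was 0.000558, 0.000883 and 0.000222 in the controls and 0.00104, 0.000990 and 0.000575 in the knockdown, with overlap (exact permutation p = 0.2, adjusted 0.3). Its log2 difference of 0.81 was 0.26 with a pseudocount of 1 on both genes, 0.38 with quantile normalization and 0.26 without control replicate 3. In the GRCr8 annotation Tnnt1 is the neighbour of Tnni3, which was far more abundant in each library. Fast skeletal troponin T (Tnnt3) was below the filter on the mean of all libraries, with group means of 1.04 and 0.472 FPKM, and fast skeletal troponin I (Tnni2) was listed at 0 in all controls.

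The tropomyosin genes split, with Tpm1 and Tpm3 higher and Tpm2 lower. Tpm1, which encodes alpha-tropomyosin, the main form of the rodent heart, measured 422, 453 and 424 FPKM in the control libraries and 724, 766 and 820.0 FPKM with the hairpin. No knockdown library came near the controls. The mean went from 433 ± 17.4 to 769.8 ± 48.3 FPKM, a ratio of 1.78 and a log2 change of 0.83 (SE 0.053, limma, Benjamini-Hochberg adjusted p = 2.37e-07). Tpm3, whose products serve slow skeletal muscle and the cytoskeleton, measured 48.8, 47.9 and 46.6 FPKM in the control libraries and 84.0, 81.1 and 89.2 FPKM with the hairpin. Again the groups lay wide apart. Its mean went from 47.8 ± 1.09 to 84.8 ± 4.11 FPKM, a ratio of 1.77 and a log2 change of 0.81 (SE 0.048, limma, Benjamini-Hochberg adjusted p = 1.19e-07). Tpm3/Tpm1 was 0.116, 0.106 and 0.110 in the controls and 0.116, 0.106 and 0.109 in the knockdown, ranges that overlapped almost in full (exact permutation p = 1). The sign of that difference turned on which library was left out. It also depended on the scaling, since after quantile normalization the log2 difference was -0.34 and the groups did not overlap (exact permutation p = 0.1).

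Tpm2, the beta-tropomyosin gene, measured 429, 434 and 445 FPKM in the control libraries and 245, 256 and 264 FPKM with the hairpin. All knockdown libraries were below all controls. Its mean went from 436 ± 8.15 to 255 ± 9.49 FPKM, or 58.5% of control, with a log2 change of -0.77 (SE 0.042, limma, Benjamini-Hochberg adjusted p = 6.83e-08). Tpm2 is also expressed in smooth muscle cells and fibroblasts, and the 15 fibroblast markers were all lower in the same libraries, at 2.82% to 31.2% of their control means. The part of fibroblast RNA in the Tpm2 values was not tested. Tpm4, a cytoskeletal tropomyosin, stood at 615 ± 30.6 and 605 ± 9.70 FPKM and did not pass as deposited (limma, Benjamini-Hochberg adjusted p = 0.684). Its direction depended on the scaling, with log2 changes of -0.21 with median-ratio scaling and 0.24 with quantile normalization, both past the threshold.

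The ratio of beta- to alpha-tropomyosin was lower in every knockdown library, while that of skeletal to cardiac actin was higher. Tpm2/Tpm1 was 1.02, 0.956 and 1.05 in the controls and 0.339, 0.334 and 0.322 in the knockdown, so the groups were far apart and the controls higher by a factor of 3.04. The two-sided exact permutation test gave p = 0.1 (adjusted 0.2), again its smallest value. Of the summed FPKM of Tpm1 to Tpm4, Tpm1 took 28.3% ± 0.444 in controls and 44.9% ± 1.00 in the knockdown, while Tpm2 took 28.5% ± 0.943 and 14.9% ± 0.0740 (SD, n = 3 each). The sum over the 4 genes went from 1532 ± 47.8 to 1715 ± 69.4 FPKM.

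The start regions of Tpm1 and Tpm2 are shown because their transcripts moved in opposite directions. They are the RefSeq (GRCr8) windows chr8:76543366-76543665 on the minus strand and chr5:62575677-62575976 on the minus strand, with capitals as above.
Tpm1: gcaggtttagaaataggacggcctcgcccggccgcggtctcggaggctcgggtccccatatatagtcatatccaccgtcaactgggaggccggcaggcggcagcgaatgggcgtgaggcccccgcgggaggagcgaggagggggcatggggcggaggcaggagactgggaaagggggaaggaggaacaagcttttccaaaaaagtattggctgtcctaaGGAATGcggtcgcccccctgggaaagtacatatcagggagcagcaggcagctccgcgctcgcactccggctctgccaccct
Tpm2: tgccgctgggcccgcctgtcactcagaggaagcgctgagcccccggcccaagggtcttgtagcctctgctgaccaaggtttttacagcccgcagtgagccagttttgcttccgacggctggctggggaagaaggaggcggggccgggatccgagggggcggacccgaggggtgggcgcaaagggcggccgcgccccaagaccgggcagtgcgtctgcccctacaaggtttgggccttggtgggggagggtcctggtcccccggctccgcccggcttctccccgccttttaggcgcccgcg
Tpm1 held the CATTCC motif on the opposite strand, written GGAATG, starting 31 bases before the start, and no CArG box or TATAAA. Tpm2 held none of the 3 motifs in this window. Tpm1 also has start sites inside the gene, which this window does not cover.

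**Figure D3:**
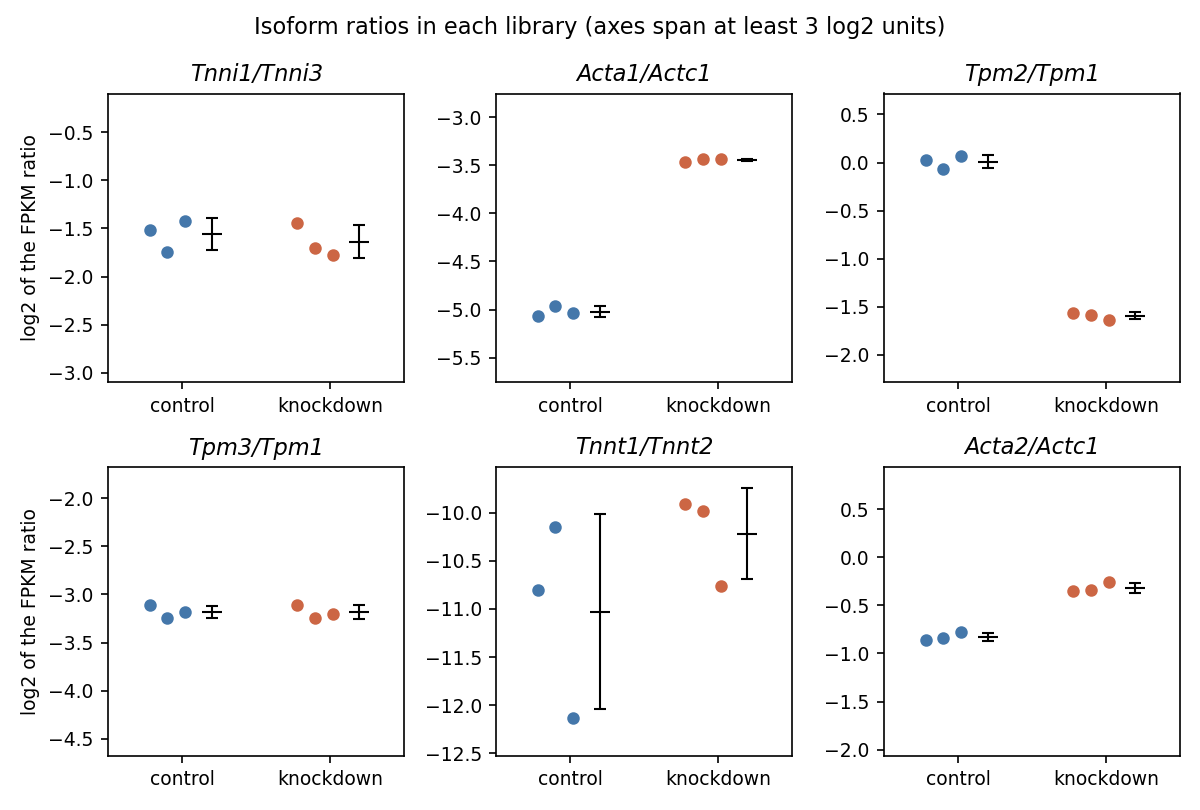
Log2 of the FPKM ratio of an early or slow-muscle gene to the main adult cardiac gene in each of the 3 control (blue) and 3 knockdown (orange) libraries, with the mean and SD in black; each axis spans at least 3 log2 units. Acta1/Actc1 and Acta2/Actc1 stand higher and Tpm2/Tpm1 lower in the knockdown, while Tnni1/Tnni3, Tpm3/Tpm1 and Tnnt1/Tnnt2 overlap between the groups.

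Across the 6 ratios on the FPKM as deposited, 2 were higher without overlap, 1 was lower without overlap and 3 overlapped. The ratios among pairs of the thick filament, given as values with no test, went both ways as well. Myh7/Myh6, the slow over the fast cardiac myosin heavy chain, was 0.378 ± 0.0353 in controls and 0.132 ± 0.00841 in the knockdown, and both genes fell. Myl4/Myl3, the atrial over the ventricular essential light chain, was 0.362 ± 0.00536 and 0.168 ± 0.0163. Myl7/Myl2, the atrial over the ventricular regulatory light chain, was 0.362 ± 0.0104 and 2.24 ± 0.164. Both of its genes fell, Myl7 from 261 ± 13.6 to 101 ± 15.7 FPKM and Myl2 from 721 ± 35.8 to 45.0 ± 5.06 FPKM.

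The order of the 10 genes by mean FPKM changed in its middle. In the controls it ran Actc1, Tnnt2, Tnnc1, Tpm2, Tpm1, Tnni3, Acta1, Tnni1, Tpm3 and Tnnt1, and of these neighbours Tpm2 and Tpm1 alone had overlapping ranges. In the knockdown it ran Actc1, Tnnt2, Tpm1, Acta1, Tnnc1, Tpm2, Tnni3, Tpm3, Tnni1 and Tnnt1. There the ranges of Tpm2 and Tnni3 overlapped, as did those of Tpm3 and Tnni1. Levels are set per length here, and the length behind the values was 911 bases for Tnnc1 but 3374 bases for Tpm1 and 6264 bases for Tpm3. The order depends on these lengths. In all, the 10 genes took 0.996% to 1.02% of the fragments in control libraries and 1.37% to 1.45% in knockdown libraries.

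**Figure D4:**
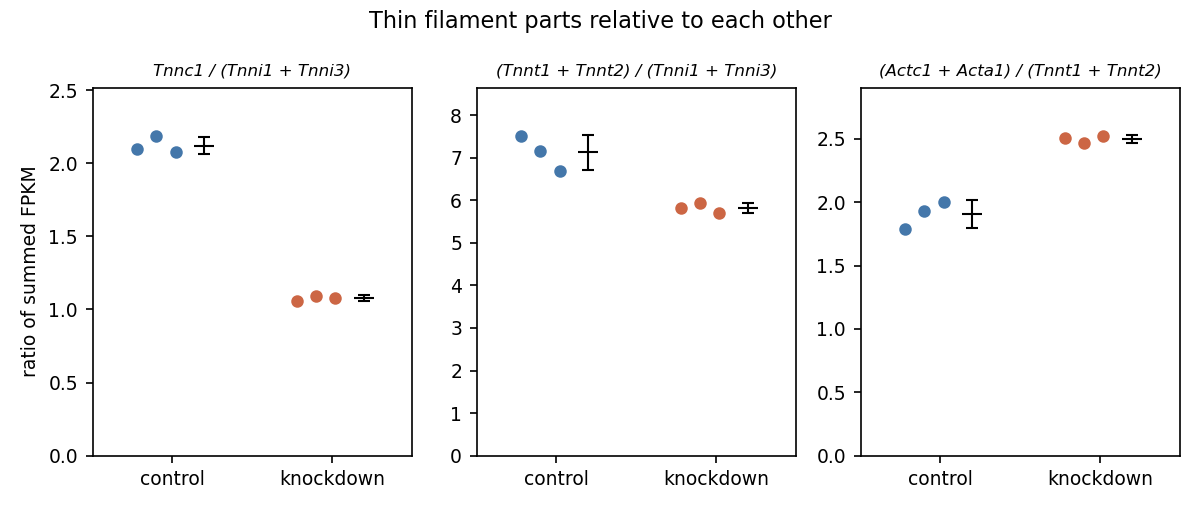
Ratios of summed FPKM as deposited, between parts of the thin filament, in the 3 control (blue) and 3 knockdown (orange) libraries. Black marks give the mean and SD, and the linear axes start at 0. Troponin C over troponin I goes from 2.12 to 1.08, troponin T over troponin I from 7.12 to 5.82, and striated actin over troponin T from 1.91 to 2.50.

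Levels of the parts relative to each other moved with these changes. Troponin T over troponin I, as sums of FPKM, went from 7.12 ± 0.416 to 5.82 ± 0.114, and the sum of Actc1 and Acta1 over troponin T from 1.91 ± 0.111 to 2.50 ± 0.0314 (SD, n = 3 each). In neither ratio did the groups overlap on the FPKM as deposited. Of the 3 ratios, troponin C over troponin I differed most. After quantile normalization Tnnt2 had a log2 change of 0.50, above 0.33 for Tnni3 and 0.30 for Tnni1, the reverse of the order as deposited. The direction of Tnnt2 relative to each troponin I gene therefore depended on the scaling. Actc1 was at 0.57 after that normalization, close to Tnnt2. The ratios of sums were not computed on those values. These are ratios of RNA per gene length and not of protein.

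**Figure D5:**
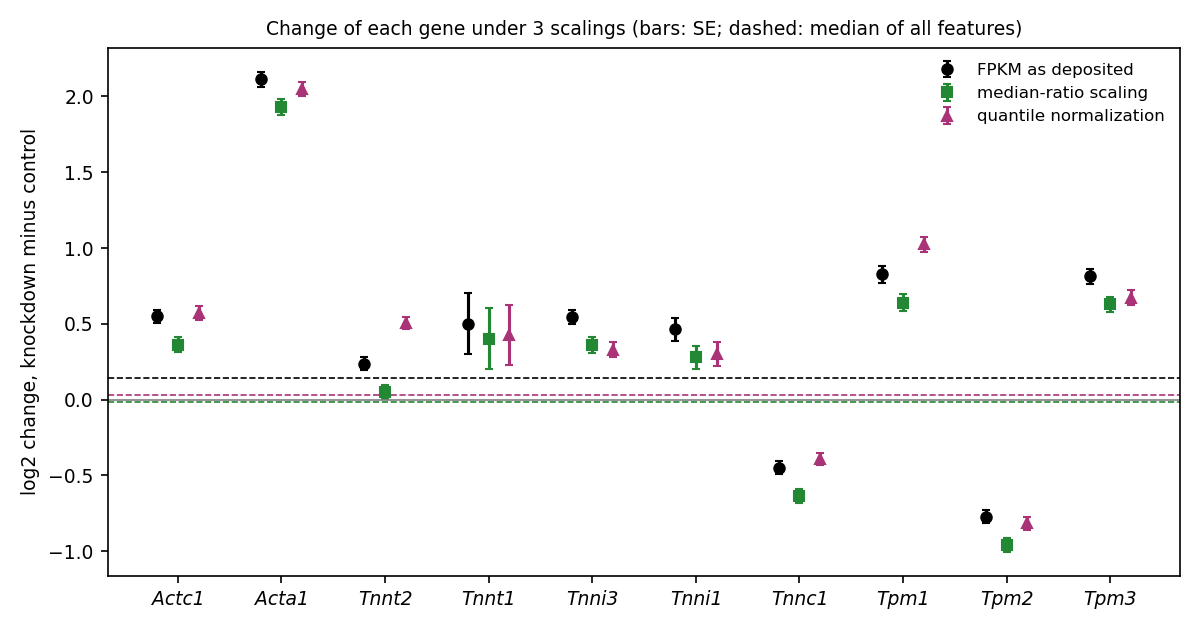
Log2 change, knockdown minus control, of the 10 genes with its SE (limma, 6 libraries) for deposited FPKM (black), median-ratio scaling (green) and quantile normalization (purple), with the median of all features as dashed lines in the same colours. No gene changes direction, Acta1 stays near 2, and Tnnt2 lies close to 0 after median-ratio scaling.

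Genes that act on the thin filament were read next, by the share of each list that was called, beside 48.4% higher and 32.4% lower over all features. Of 26 genes for filament length, capping and assembly, 22 were tested, 15 rose, Capza1 fell and 6 did not pass, with a median log2 change of 0.53. After median-ratio scaling 12 rose and 4 fell, and after quantile normalization 12 rose and 5 fell. Nrap, which takes part in myofibril assembly, rose from 16.0 ± 0.770 to 47.4 ± 1.07 FPKM, and Xirp1, an actin-binding protein of the intercalated disc, from 15.6 ± 0.349 to 44.8 ± 2.42 FPKM. Wdr1, a cofactor of cofilin in actin turnover, rose from 121 ± 2.79 to 217 ± 0.943 FPKM, and the actin-binding Svil from 11.9 ± 0.505 to 26.8 ± 0.727 FPKM. In the list for folding, modification and turnover of actin and tropomyosin, 14 of 16 genes rose, Fbxo32 fell and Cct2 did not pass, with a median log2 change of 0.53. After either other scaling 11 rose and 2 fell. The myosin chaperone gene Unc45b rose from 19.7 ± 0.712 to 34.4 ± 0.858 FPKM, and Hsp90aa1 from 150.5 ± 9.08 to 346 ± 2.61 FPKM. Naa25, a subunit of an N-terminal acetyltransferase, rose from 6.23 ± 0.245 to 13.2 ± 0.570 FPKM. Trim63, the muscle ubiquitin ligase MuRF1 that acts on troponin I among other sarcomere proteins, rose from 13.0 ± 0.818 to 90.7 ± 1.93 FPKM.

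Regulators of thin filament genes were mixed. Of 21 tested transcription factors and cofactors, 9 rose, 6 fell and 6 did not pass, with a median log2 change of 0.10. That split lay near the 48.4% higher and 32.4% lower over all features, so it does not set the list apart. With median-ratio scaling the split was 8 higher and 8 lower, again near the shares of all features (38.8% and 41.0%). Myocd, the muscle cofactor of serum response factor, rose from 5.47 ± 0.156 to 16.5 ± 0.508 FPKM. Srf, the factor itself, was named after its values were seen and rose from 20.6 ± 1.51 to 31.9 ± 0.401 FPKM. Abra, a muscle protein that promotes the same pathway through actin, rose from 6.37 ± 0.512 to 30.4 ± 0.977 FPKM. Mef2c rose from 4.55 ± 0.407 to 17.8 ± 1.29 FPKM and Hand2, a factor of ventricle formation, from 42.0 ± 3.23 to 138 ± 3.09 FPKM. Both cofactors Mrtfa and Mrtfb did not pass, and the 6 that fell were Gata4, Gata6, Tbx5, Tbx20, Tead1 and Tead4. Of 12 tested splicing regulators that act on Tnnt2 or Tpm1 or on other muscle transcripts, 8 rose, Celf1, Mbnl3 and Rbfox2 fell, and Celf2 did not pass. With median-ratio scaling the split was 7 higher and 4 lower, beside 38.8% and 41.0% of all features. Rbm24 rose from 11.0 ± 0.745 to 36.7 ± 0.492 FPKM, Rbm20 from 4.57 ± 0.227 to 14.2 ± 0.265 FPKM and Ptbp2 from 3.63 ± 0.335 to 10.3 ± 0.515 FPKM. Rbfox2 fell from 17.8 ± 0.333 to 8.46 ± 0.307 FPKM. Since the table gives values per gene, the splice forms of Tnnt2 and Tpm1 were not analysed here.

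Of 16 kinases, phosphatases and their regulators that act on the troponin complex or in its signalling, 11 rose, Pak1, Rock1, Rock2 and Tnni3k fell, and Prkce did not pass. The median log2 change was 0.46, and with median-ratio scaling the split was 9 higher and 4 lower, beside 38.8% and 41.0% of all features. Prkaca, the catalytic subunit of protein kinase A that phosphorylates cardiac troponin I, rose from 49.3 ± 0.536 to 103 ± 1.47 FPKM. Its regulatory subunit gene Prkar2a rose from 18.0 ± 0.955 to 39.3 ± 0.691 FPKM. Ppp1ca, a catalytic subunit of protein phosphatase 1, rose from 200.1 ± 1.71 to 368 ± 19.3 FPKM. Pak1, a kinase linked to dephosphorylation of troponin I in heart cells, fell from 14.2 ± 1.56 to 2.04 ± 0.203 FPKM. Fibroblast markers had a median log2 change of -3.31 in the same libraries, and their part in the Pak1 values was not tested.

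Reads of close copies limit some values. The coding sequences of the muscle actins are nearly identical, and the treatment of reads that match several genes is unknown here. By the GRCr8 annotation, 2 of the 10 genes overlap another gene, Actc1 a long non-coding RNA and Tpm3 a microRNA, and strand was not stated. That annotation names 9 pseudogenes of Actc1, Acta1, Tpm1, Tpm2 and Tpm3 together, of which 0 have a row of their own in the expression table.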

How the data were processed

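RNA sequencing of 6 libraries, 3 control and 3 knockdown, was grouped by the labels, which put all in batch 1. Expression came as a single table that the authors deposited, holding the FPKM of each gene symbol in each library, unpooled per the file headers. Tools named in the submitters' processing notes are fastp, HISAT2 and HTSeq, with no version. Build, annotation and strand: not given in the sources used here.

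Whole reads, gene lengths and depths were recovered from the FPKM steps for 22634 features (tolerance 0.01 reads). For a length of 1 kb, a floor of 3 reads equals 0.0748 to 0.0850 FPKM across libraries, counting error only. Replicates differed by more than sampling noise, with a chi-square per feature of 8.16 to 14.5, and none was merged.

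Features averaging 1 FPKM or more over the 6 libraries, 11975 in all, were tested as log2(FPKM + 1) with limma 3.58.1 (trend, two-sided, Benjamini-Hochberg, adjusted p under 0.05) in R 4.3.3, after a test on simulated data. The pseudocount makes log2 changes of low genes too small. Ratios of 2 genes used FPKM without a pseudocount and a two-sided exact permutation test, adjusted over 6 ratios. Python 3.11.15 made tables and plots. No count model was used, since the values are FPKM.

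The genes and lists were chosen with earlier results of these data known. The text names all 10 genes and their paralogues. From each other list it names up to 4 genes with the smallest adjusted p, plus, chosen after their values were seen, exceptions to a list's direction. Alternatives were median-ratio scaling, quantile normalization, a pseudocount of 0.1, no filter, for ratios a pseudocount of 1, leaving out each library and a replicate block.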

Additional observations from a re-analysis of the deposited data

How the results depend on the processing

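The 10 genes kept their direction in all 110 values under the alternatives, and 101 of these stayed on the same side of the threshold. The exceptions were Tnnt2 after median-ratio scaling and Tnnt1 under 8 alternatives. All counts of called features stayed within 1.5 times those on the FPKM as deposited. Without each library in turn, 9287 to 9464 features were called, 5572 to 5657 higher and 3703 to 3807 lower, and 7 to 8 of the 10 genes were higher and 2 lower. Without any filter 11970 of 22634 features were called.

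Of the ratios, Tpm3/Tpm1 changed sign, with log2 differences from -0.0388 to 0.0327 over the libraries left out, and with quantile normalization it was -0.34 (exact permutation p = 0.1), against -0.0010 on the FPKM as deposited. The cause was not tested. Over the libraries left out, the ranges were 1.55 to 1.61 for Acta1/Actc1, -1.64 to -1.57 for Tpm2/Tpm1, 0.48 to 0.53 for Acta2/Actc1, -0.18 to -0.01 for Tnni1/Tnni3 and 0.26 to 1.25 for Tnnt1/Tnnt2. For Tnnt1/Tnnt2, 0.81 over all libraries, the value was 0.26 without control replicate 3, 0.26 with a pseudocount of 1 on both genes and 0.38 with quantile normalization (exact permutation p = 0.5 and 0.7 for the last 2). For Decr1 the log2 change ran from -4.02 to -3.55.

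Libraries of the same number did not deviate together, with correlations of -0.0027, 0.068 and -0.071, so the numbers were not taken to pair them. With the replicate block 9574 features were called, 5750 higher and 3824 lower, and no call among the 10 genes was lost. The exact test with the block, over pairs, cannot go below 0.25. Tnnt1 rests on 13 to 68 reads per library, and its FPKM varied between the control libraries with a coefficient of variation of 60.0%.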

Other observations

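The genes whose profile over the 6 libraries lay nearest to those of Acta1 and Tpm2 were looked up among 11267 named features. Nearness was the Euclidean distance between log2(FPKM + 1) values centred on each gene's mean. With 2 groups that stand apart, it mostly finds genes of like change. Nearest to Acta1 were Cep76, Tor1b, Tbc1d8, Plppr4 and Mcm6, at distances of 0.107 to 0.133. Cep76, a centrosomal protein gene, went from 3.67 ± 0.0899 to 19.0 ± 0.0911 FPKM, and Mcm6, a subunit of the replicative helicase, from 17.8 ± 1.55 to 75.0 ± 1.70 FPKM (SD, n = 3 each). Nearest to Tpm2 were Sfxn3, Crtapl1, Vti1b, Tspan3 and Orc3, at distances of 0.0548 to 0.0644. Sfxn3, a mitochondrial carrier gene, went from 29.5 ± 0.969 to 16.8 ± 0.368 FPKM, and Vti1b, a SNARE protein gene, from 6.17 ± 0.0124 to 3.20 ± 0.150 FPKM.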
